A study of Mus musculus with 6 samples.

Results

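The Toll-like receptor genes Tlr1 to Tlr9 and Cd14, the gene of their lipopolysaccharide co-receptor, were followed as a family of 10 genes, listed by name, out of 35297 genes that the transcripts of the deposited tables were matched to. They were measured in bone marrow-derived mast cells (BMMCs) on day 20 of culture, from naive wild type BALB/c mice (libraries S9, S10 and S11) and naive wild type C57BL/6 mice (libraries S12, S13 and S14), with 3 libraries per strain. All 6 cultures were fed stem cell factor, TGF-β1, IL-9 and IL-3 alike, and the sources name no stimulus of a Toll-like receptor for them. The study compared the mast cell proteases of the strains, in lungs of mice with allergic airway inflammation and in BMMCs. The comparison here asks how the receptors of microbial ligands differ between the sequenced BMMC cultures, which were not part of the inflammation model. The study describes the 3 libraries of a strain as biological replicates. The sources do not say whether they came from separate animals, and p-values measure the spread between these libraries.

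Toll-like receptors are transmembrane proteins that recognise conserved microbial molecules through an outer domain of leucine-rich repeats and signal through an inner TIR domain. Tlr2 pairs with Tlr1 or Tlr6 on the cell surface for bacterial lipopeptides, Tlr4 binds lipopolysaccharide together with Ly96 (MD-2) and Cd14, and Tlr5 binds flagellin. Tlr3, Tlr7, Tlr8 and Tlr9 bind nucleic acids in endosomes. Mast cells are known to release cytokines without degranulation when some of these receptors are engaged.

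Between 28273365 and 37100869 reads per library were assigned to genes. Levels of different genes are given as TPM, the deposited estimate of transcript abundance, which accounts for transcript length. Levels of one gene in both strains are given as estimated reads and as CPM, counts scaled to a common library size after TMM correction. A gene was called different when edgeR's quasi-likelihood test gave an adjusted p under 0.05 and the fold change was above 2. The mast cell genes Kit, Fcer1a, Ms4a2, Cpa3 and Gata2 were above 1000 CPM in every library, and all 10 genes of the mast cell list were tested. Hdc was the lowest of them (1.76 to 5.91 CPM). Of the list, Tpsb2 and Hdc were called higher in C57BL/6. By the adjusted p alone, Kit, Fcer1a and Ms4a2 were higher in C57BL/6, and Cma1 and Mitf in BALB/c.

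Of the 10 genes, 6 had enough reads for the test. Tlr2 rose in C57BL/6 BMMCs, and 963 of 12461 genes tested (7.73%) were called in that direction. Tlr6 and Tlr1 were higher in BALB/c BMMCs, as were 5.54% of the genes tested. Tlr4 passed the adjusted p with a change below 2-fold, which brings the number past the adjusted p to 4 of 6, against 52.9% of the genes tested. The CPM values of the strains did not overlap for the same 4 genes, a separation found in 61.9% of the genes tested. Cd14 and Tlr7 did not pass. Tlr3, Tlr8 and Tlr9 had no read in any library and Tlr5 had 1, so they were not tested. Tlr1 and Tlr2 passed the filter on low counts only through the strain in which they were higher, so their being tested was not independent of the difference.

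The order of the levels differed between strains for Tlr2, which was below Tlr7 and Tlr1 in BALB/c and above them in C57BL/6, and for Tlr6 and Cd14, which exchanged places. In BALB/c BMMCs the mean TPM was 4.05 ± 0.26 for Tlr4, 1.68 ± 0.38 for Tlr6, 1.23 ± 0.49 for Cd14, 0.242 ± 0.060 for Tlr7, 0.209 ± 0.067 for Tlr1 and 0.042 ± 0.0076 for Tlr2 (SD, n = 3). Neighbours in this order overlapped between libraries for Tlr6 and Cd14 and for Tlr7 and Tlr1. In C57BL/6 BMMCs the mean TPM was 4.55 ± 0.39 for Tlr4, 0.924 ± 0.18 for Cd14, 0.480 ± 0.071 for Tlr6, 0.477 ± 0.11 for Tlr2, 0.206 ± 0.055 for Tlr7 and 0.0616 ± 0.011 for Tlr1 (SD, n = 3). There, only Tlr6 and Tlr2 overlapped among the detected neighbours. Tlr4 alone made up from 50.0% to 71.1% of the summed TPM of the 10 genes in a library. Its mean TPM over all libraries exceeded that of 31.7% of the genes tested, and the corresponding share was 15.8% for both Tlr6 and Cd14 and 2.22% for Tlr1, so these receptors lay in the lower part of the range of expression.

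**Figure D1:**
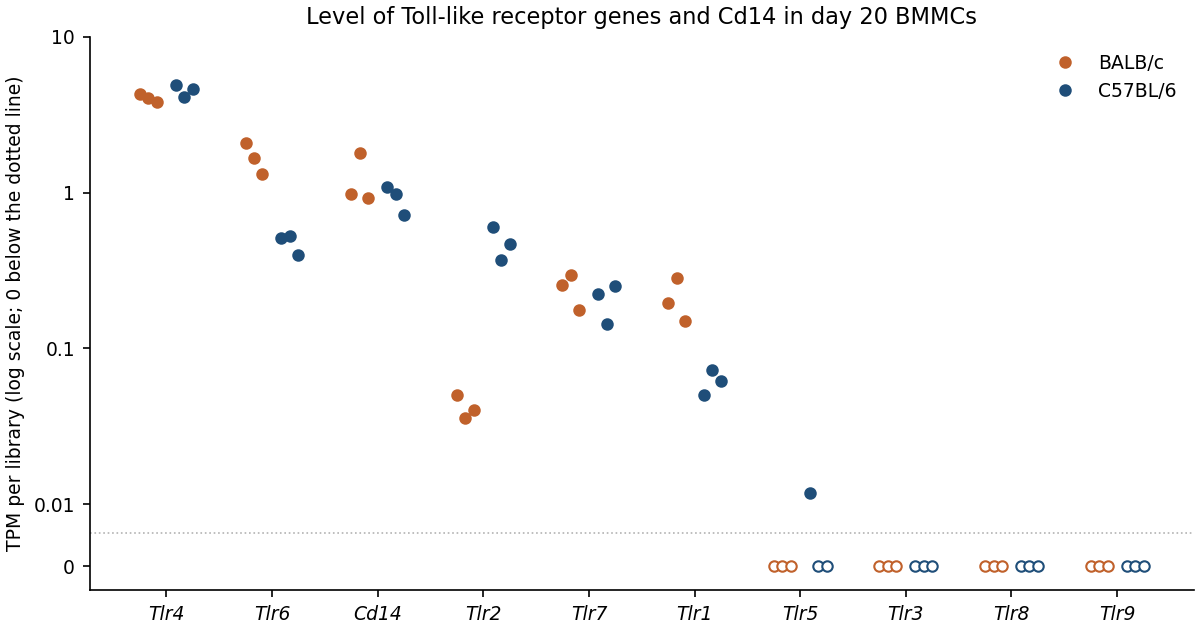
TPM (log scale) of the 10 genes in each of the 6 libraries, with BALB/c in orange and C57BL/6 in blue, and libraries without reads as open circles below the dotted line. Tlr4 lay near 4 TPM in both strains, Tlr2 was at 0.0505 TPM or below in BALB/c libraries and at 0.370 TPM or above in C57BL/6 libraries, and Tlr6 and Tlr1 were shifted the other way.

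Tlr2, the shared partner of the lipopeptide receptors, showed the largest fitted fold difference of the 6 genes tested in edgeR. The gene lies on the minus strand at chr3:83743576-83749074 (GRCm39). Salmon assigned it 3, 2 and 3 reads in S9 to S11 (BALB/c) and 40, 22 and 35 reads in S12 to S14 (C57BL/6). Every C57BL/6 library was far above every BALB/c library, and each BALB/c library held no more reads than the 3 that a count of 0 would allow. In CPM this was 0.0942, 0.0671 and 0.0798 against 1.25, 0.813 and 0.989. The fitted log2 fold change was 3.60 (SE 0.36, edgeR adjusted p = 3.79e-05). With only 8 reads over the BALB/c libraries and 97 over the C57BL/6 libraries, the ratio of the pooled reads was 12.7, with an exact 95% interval of 6.22 to 30.4 that covers counting error only. The same direction and a passed adjusted p were found under each of the 16 alternatives that could be fitted for this gene, where the adjusted p lay between 1.04e-06 and 0.000391. With limma on log2(TPM + 1) the difference was 0.50, below 2-fold, and Tlr2 was not tested with 10 counts in every library or with curated transcripts alone. The 3 transcripts of Tlr2 were not used evenly: all reads of S9, S13 and S14 were placed on NM_011905.3, those of S10 and S12 on XM_006501460.4 and those of S11 on XM_030252611.2. The placement did not follow strain, and the values above are sums over the transcripts.

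Tlr6, which pairs with Tlr2 for diacylated lipopeptides, was higher in BALB/c BMMCs. It lies on the minus strand at chr5:65108704-65203497. BALB/c libraries held 108, 81.3 and 82.8 estimated reads, while C57BL/6 libraries held 30.0, 27.4 and 26.2 and were all below the lowest BALB/c library. The CPM values were 3.39, 2.72 and 2.21 against 0.939, 0.998 and 0.734. Tlr6 had a log2 fold change of -1.64 (SE 0.23, edgeR adjusted p = 0.000277), which is 3.12-fold higher in BALB/c. With limma on log2(TPM + 1) it was -0.85, below 2-fold. Nearly all of its reads (97.1%) were placed on NM_001359180.2, so the difference did not accompany a change of transcript.

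Tlr1, which pairs with Tlr2 for triacylated lipopeptides, was the lowest of the 6 genes tested in C57BL/6 and the lowest but Tlr2 in BALB/c. It lies next to Tlr6 on the same strand at chr5:65082022-65090941, with 17762 bases between the genes. BALB/c libraries held 10.9, 16.8 and 11.5 estimated reads, and C57BL/6 libraries 3.18, 4.06 and 4.37. The strains did not overlap, although the C57BL/6 values, rounded for the test, lay at or just above the 3 reads that a count of 0 would allow. The fitted log2 fold change was -1.77 (SE 0.43, edgeR adjusted p = 0.00757). The estimated reads, pooled by strain and then rounded to 39 and 12, had a ratio of 3.09 in favour of BALB/c (exact 95% interval 1.59 to 6.49, counting error only). DESeq2 gave an adjusted p of 0.0552 without an offset for transcript length and 0.0788 with it, so the Tlr1 call rests on the test used. Over all 15 alternatives that could be fitted for Tlr1, the adjusted p lay between 0.0042 and 0.0788, and the difference was below 2-fold with limma on log2(TPM + 1) (-0.19) and log2(TPM + 0.1) (-0.92).

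The partners therefore stood in a different proportion in each strain. Tlr6 exceeded Tlr2 in every BALB/c library, with TPM values of 2.07, 1.65 and 1.31 against 0.0505, 0.0356 and 0.0401. In the C57BL/6 libraries Tlr6 was at 0.512, 0.529 and 0.399 TPM and Tlr2 at 0.598, 0.370 and 0.464 TPM. Tlr2 was the higher of the pair in S12 and S14 and Tlr6 in S13. In bulk RNA of a culture, fewer cells that express a gene and less RNA per cell cannot be told apart.

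**Figure D2:**
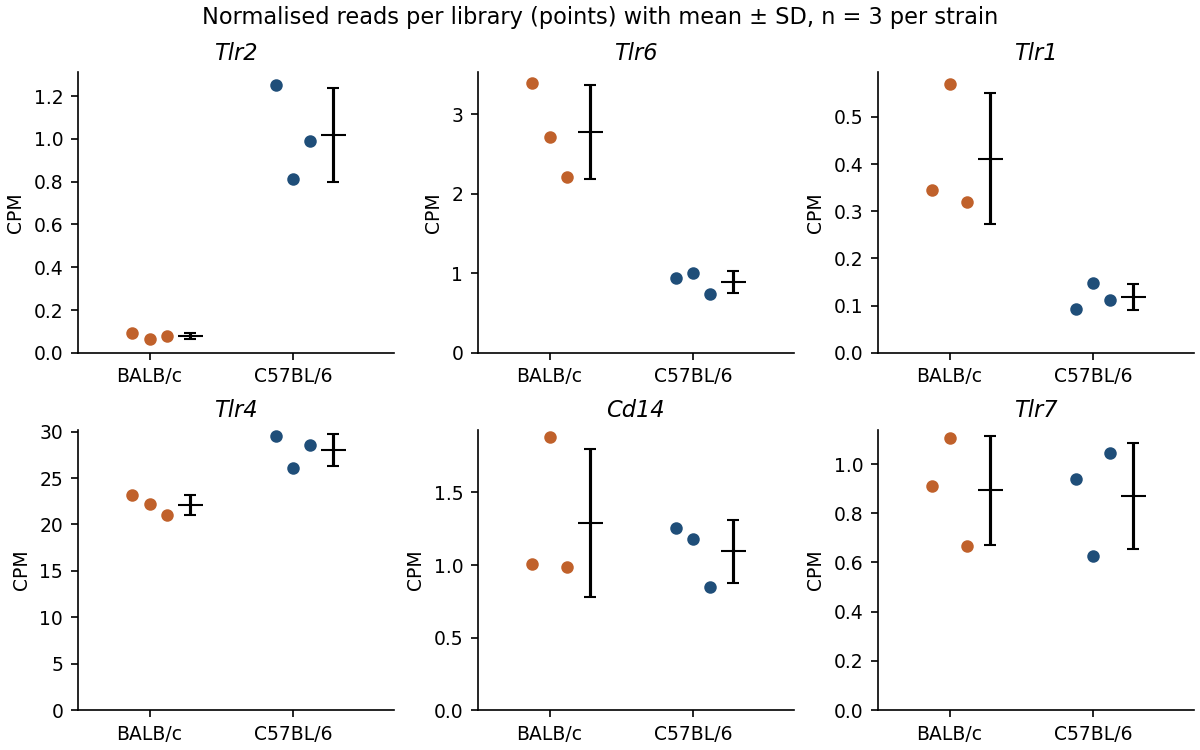
CPM of the 6 genes with enough reads, in each library (points), with the mean and SD of the 3 libraries per strain (bars); each axis starts at 0 and has its own scale. The points of the strains were separate for Tlr2, Tlr6, Tlr1 and Tlr4 and mixed for Cd14 and Tlr7.

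Tlr1 and Tlr6 are close relatives, and reads of one may be assigned to the other. Their coding sequences, taken from GENCODE models on GRCm39, were 75.4% identical, and 603 words of 31 bases were found in both, which is 25.3% of the words of the Tlr6 coding sequence. All shared words lay between bases 1333 and 2242 of the 2418 coding bases of Tlr6. The longest stretch without a difference ran over 229 bases, from base 1468 to base 1696 of the Tlr1 coding sequence and from base 1507 to base 1735 of that of Tlr6. It is shown in lower case because a fragment that falls within it fits both genes equally.
Tlr1 and Tlr6 shared run: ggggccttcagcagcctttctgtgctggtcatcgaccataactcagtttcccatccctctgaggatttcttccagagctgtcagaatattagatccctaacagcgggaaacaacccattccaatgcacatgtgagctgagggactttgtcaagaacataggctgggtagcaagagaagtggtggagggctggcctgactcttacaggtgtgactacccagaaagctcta

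The estimated reads of Tlr1 and Tlr6 were not whole numbers in any library, so Salmon had divided some reads between transcripts. Because both genes moved the same way, the sum of their reads was tested as 1 feature, and it had a log2 fold change of -1.66 (SE 0.21, edgeR adjusted p = 0.000171). The sum was mostly Tlr6, so its result largely repeats that of Tlr6. It was not a whole number in any library either, so whether reads were divided correctly was not tested. Tlr2 shared no word of 31 bases with any other Toll-like receptor gene, and the neighbours Tlr7 and Tlr8 shared none with each other.

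**Figure D3:**
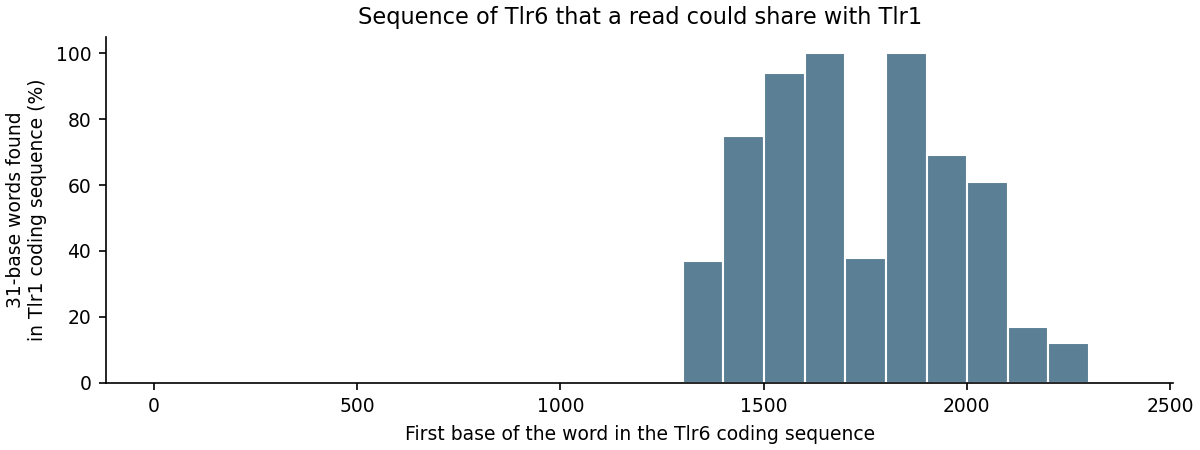
Share of 31-base words of the Tlr6 coding sequence that also occur in the Tlr1 coding sequence, in bins of 100 words (horizontal axis, position of the word's first base). Shared words were confined to the bins from 1301 to 2300, reached 100% in the bins starting at 1601 and 1801, and were absent before.

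The stretches upstream of the genes that moved are shown for Tlr2, Tlr6 and Tlr1, 250 bases before the annotated start (RefSeq, GRCm38.p6, all on the minus strand and written 5′ to 3′). Of the annotated starts of Tlr6 and Tlr1, the one whose window held a match is given. Capitals mark matches on either strand to short motifs known for factors active in myeloid cells: GGG, any 5 bases and CC for NF-kB, GAGGAA for PU.1, AGATAA for GATA factors, and GGGCGG for Sp1.
Tlr2, chr3:83841609-83841858: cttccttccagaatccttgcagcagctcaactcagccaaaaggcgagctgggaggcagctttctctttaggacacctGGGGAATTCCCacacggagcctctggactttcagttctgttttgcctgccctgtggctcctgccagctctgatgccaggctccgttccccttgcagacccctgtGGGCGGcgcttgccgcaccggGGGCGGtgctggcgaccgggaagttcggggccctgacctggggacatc
Tlr6, chr5:64960049-64960298: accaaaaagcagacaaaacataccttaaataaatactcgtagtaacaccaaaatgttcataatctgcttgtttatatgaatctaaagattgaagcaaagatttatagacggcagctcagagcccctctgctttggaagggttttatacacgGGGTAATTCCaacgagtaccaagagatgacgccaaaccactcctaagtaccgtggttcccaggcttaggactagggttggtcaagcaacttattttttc
Tlr1, chr5:64933559-64933808: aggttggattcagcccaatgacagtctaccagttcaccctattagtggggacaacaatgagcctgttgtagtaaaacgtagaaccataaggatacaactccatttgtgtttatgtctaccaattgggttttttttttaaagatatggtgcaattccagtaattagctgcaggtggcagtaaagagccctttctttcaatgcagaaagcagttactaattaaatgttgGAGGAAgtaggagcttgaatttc

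The Tlr2 window held 2 overlapping matches to the NF-kB motif, printed as 1 run of capitals, and 2 matches to the Sp1 motif. The Tlr6 window held 1 match to the NF-kB motif, 99 bases before the start, and the Tlr1 window 1 match to the PU.1 motif, 23 bases before the start. Among 9 windows of 7 of the 10 genes, the NF-kB motif was found in 4, the PU.1 motif in 3, the GATA motif in 2 and the Sp1 motif in 2. The same letters occurred in 45.8%, 23.3%, 9.99% and 32.7% of all 32851 windows of the RefSeq table, so such matches are common. A match describes the letters of the reference and not binding.

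Tlr4, the lipopolysaccharide receptor, was the most abundant of the 10 genes in every library and differed little between strains. It lies on the plus strand at chr4:66745783-66849936. Its TPM values of 4.30, 4.07 and 3.79 (BALB/c) overlapped with those of 4.88, 4.12 and 4.65 (C57BL/6). Its CPM values, 23.2, 22.2 and 21.0 against 29.5, 26.1 and 28.6, did not. The log2 fold change was 0.34 (SE 0.065, edgeR adjusted p = 0.0018), a 1.27-fold difference. With limma on log2(TPM + 1) the difference was 0.13 and the adjusted p 0.174, and with limma on log2(TPM + 0.1) it was 0.16 and the adjusted p 0.19. On these TPM scales the median over all genes was -0.15 and -0.18, while it was -0.0073 after TMM.

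Cd14, which hands lipopolysaccharide to Tlr4 and Ly96, gave no detectable difference. It lies at chr18:36858120-36859851. BALB/c libraries held 32, 56 and 37 reads, and C57BL/6 libraries 40, 32 and 30. The strains overlapped, and S10 was the highest. The log2 fold change was -0.23 (SE 0.31, edgeR adjusted p = 0.557), and it turned to 0.13 without S10. The ratio of pooled reads, C57BL/6 over BALB/c, was 0.858 with an exact 95% interval of 0.654 to 1.12 for counting error alone.

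Of the 5 genes listed as ligand co-receptors beside Cd14, 2 were tested, and both passed the adjusted p in the direction of C57BL/6 without reaching 2-fold. The adjusted p was passed by 52.9% of all genes tested, 3361 of 12461 toward C57BL/6, so 2 such genes say little about the list. Ly96, without which Tlr4 does not bind lipopolysaccharide, was at 2.70, 2.68 and 2.95 CPM for BALB/c against 4.32, 3.14 and 4.29 CPM for C57BL/6. Its log2 fold change was 0.50 (SE 0.16, edgeR adjusted p = 0.0241), and the adjusted p rose above 0.05 in 10 of 18 alternatives, up to 0.0921. Cd180, a Toll-like receptor homologue that regulates Tlr4 in B cells, had 9.08, 9.39 and 8.94 CPM for BALB/c against 14.8, 15.8 and 15.8 CPM for C57BL/6, with a log2 fold change of 0.76 (SE 0.073, edgeR adjusted p = 2.73e-05). Its partner gene Ly86 had 1 read in S10 and none elsewhere. Lbp, which carries lipopolysaccharide in serum, had no read.

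Among Tlr3, Tlr7, Tlr8 and Tlr9, the nucleic acid sensors of the family, reads were found only for Tlr7, a sensor of single-stranded RNA. It lies at chrX:166086758-166113605. BALB/c libraries held 29.3, 32.9 and 25.3 estimated reads, and C57BL/6 libraries 29.6, 16.9 and 37.3. The strains overlapped, with S10 highest (1.11 CPM) and S13 lowest (0.628 CPM). The log2 fold change was -0.01 (SE 0.29, edgeR adjusted p = 0.978), and the ratio of pooled reads was 1.01 with an exact 95% interval of 0.743 to 1.39 for counting error alone. The interval leaves out the spread between libraries, so differences somewhat beyond it could also have been missed. Of the reads of Tlr7, 99.3% were placed on the predicted transcript XM_006528713.2, whose 5460 bases exceed the 3794 bases of NM_133211.4, and its TPM was computed on that length.

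Tlr3 (chr8:45848702-45864117), the sensor of double-stranded RNA, Tlr8 (chrX:166024184-166047325), a relative of Tlr7, and Tlr9 (chr9:106099797-106104082), the sensor of unmethylated CpG DNA, had 0 reads in all 6 libraries. A count of 0 allows 3 reads per library, which is between 0.0809 and 0.106 CPM before the TMM correction. For Tlr9 that limit corresponded to 0.0324 to 0.0433 TPM, for Tlr3 to 0.0254 to 0.0339 TPM and for Tlr8 to 0.0229 to 0.0306 TPM, all below the level of Tlr7 in any library. These limits cover counting error only, since reads without molecular identifiers are not independent molecules. Tlr5 (chr1:182782311-182805500), the flagellin receptor, had 1 read, in S12, and was within the same limit. Of the other mouse receptors, Tlr11 had no read, Tlr12 had 1 read in S12 and 1 in S14, and Tlr13, a sensor of bacterial ribosomal RNA, had 1 read in S10, 3 in S12 and 6 in S14, the last above the limit of 3 reads.

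The chaperone that carries the nucleic acid sensors to endosomes did differ. Unc93b1 was at 5.84, 6.24 and 5.40 CPM for BALB/c against 12.2, 11.3 and 11.9 CPM for C57BL/6, with a log2 fold change of 1.02 (SE 0.09, edgeR adjusted p = 1.53e-05), just past the 2-fold threshold. It fell below 2-fold, and its call was lost, with plain library size (0.88), upper-quartile factors (0.9998), limma on log2(TPM + 1) (0.70) and log2(TPM + 0.1) (0.82), without S11 (0.97) and without S12 (0.9994). Of the 12 genes of receptor folding and trafficking, 11 were tested, and 1 was called, higher in C57BL/6. A further 2 passed the adjusted p alone in that direction and 5 in the direction of BALB/c. In all, 8 of the 11 passed the adjusted p, against 52.9% of all genes tested, of which 7.73% were called higher in C57BL/6. Hsp90b1 (gp96), the folding chaperone of most Toll-like receptors, was at 936, 881 and 982 CPM for BALB/c against 759, 753 and 733 CPM for C57BL/6, and its log2 fold change was -0.32 (SE 0.044, edgeR adjusted p = 0.000279). Its co-chaperone Cnpy3 had a log2 fold change of -0.12 (SE 0.058, edgeR adjusted p = 0.111), and it passed at -0.26 with plain library size (adjusted p = 0.00531). The median log2 fold change of the 11 genes was -0.12, against -0.0073 over all genes tested.

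None of the adaptors that bind the TIR domain of these receptors passed the test (edgeR, among Myd88, Tirap, Ticam1 and Ticam2). Myd88, used by all members of the family but Tlr3, was at 81.5, 82.3 and 83.6 CPM for BALB/c against 86.7, 82.2 and 84.0 CPM for C57BL/6 (log2 fold change 0.03, SE 0.037, edgeR adjusted p = 0.496). Tirap, the bridge between Tlr2 or Tlr4 and Myd88, had a log2 fold change of 0.12 (SE 0.10, adjusted p = 0.338), and Ticam1 (TRIF), the adaptor of Tlr3 and Tlr4, one of -0.06 (SE 0.061, adjusted p = 0.431). The kinase Irak4 had -0.03 (SE 0.039, adjusted p = 0.528) and the ubiquitin ligase Traf6 0.02 (SE 0.042, adjusted p = 0.668). Of the 4 adaptors, 0 had an unadjusted p under 0.05 in edgeR and 0 passed in DESeq2. With plain library size, under which the median over all genes was -0.15, Myd88 was at -0.11 (adjusted p = 0.0344) and Ticam1 at -0.20 (adjusted p = 0.0195), so their sign or call depends on the scaling. Irak4 (-0.18, adjusted p = 0.00571) and Traf6 (-0.12, adjusted p = 0.0418) also passed in that setting. Ticam2 (TRAM), which links Tlr4 to Ticam1, had 35.4, 25.0 and 0 reads for BALB/c against 0, 0 and 16.0 for C57BL/6. Its libraries were split within each strain, and the log2 fold change of -1.89 had an SE of 1.24 (adjusted p = 0.229). With a library left out, the log2 fold change of Ticam2 lay between -7.32 (without S14) and -1.24 (without S9). Of the 12 adaptors and proximal kinases, 11 were tested and 1 was called. A further 3, Irak1 (0.31), Irak2 (0.28) and Traf3 (0.20), passed the adjusted p alone, all higher in C57BL/6. Thus 4 of the 11 passed the adjusted p, against 52.9% of all genes tested. The called gene was Pik3ap1 (BCAP), an adaptor of phosphoinositide 3-kinase that dampens Toll-like receptor signals. It was at 15.8, 8.69 and 13.4 CPM for BALB/c against 47.8, 58.1 and 55.6 CPM for C57BL/6 (log2 fold change 2.08, SE 0.17, adjusted p = 9.14e-06), and with curated transcripts alone the log2 fold change was 2.97.

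Of the 18 downstream kinases and transcription factors, all tested, 3 were called, and these were higher in C57BL/6. A further 3 passed the adjusted p alone toward C57BL/6 and 3 toward BALB/c. The adjusted p was thus passed by 9 of 18, against 52.9% of all genes tested, of which 7.73% were called higher in C57BL/6. Irf8, a transcription factor of myeloid cells, was at 0.377, 0.0671 and 0.0798 CPM for BALB/c against 5.13, 5.06 and 6.55 CPM for C57BL/6, with a log2 fold change of 4.99 (SE 0.38, edgeR adjusted p = 6.57e-06). It reached the filter only through C57BL/6, and since S9 held 12 of its few BALB/c reads, the value was 6.16 without that library. Irf5, which is activated downstream of Myd88, rose with a log2 fold change of 2.55 (SE 0.12, edgeR adjusted p = 2.65e-07), and Map3k8 (Tpl2), the kinase that links the receptors to ERK, with 1.22 (SE 0.17, adjusted p = 0.000317). Map3k8 fell below 2-fold with limma on log2(TPM + 1) (0.65) and log2(TPM + 0.1) (0.94), and it was not tested with curated transcripts alone. Of the 9 negative regulators, 1 was called, and a further 2 passed the adjusted p alone, also toward C57BL/6. These 3 of 9 stand against the same 52.9%. Tnfaip3 (A20), a ubiquitin-editing enzyme that ends NF-kB signals, was at 17.1, 13.8 and 13.4 CPM for BALB/c against 47.2, 43.1 and 43.5 CPM for C57BL/6 (log2 fold change 1.60, SE 0.091, edgeR adjusted p = 1.03e-06).

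Over all 59 listed genes of the pathway, 51 were tested, 6 (11.8%) were called and all 6 were higher in C57BL/6, against 7.73% of all genes tested in that direction and 5.54% in the direction of BALB/c. The adjusted p alone was passed by 26 of 51, which is close to the 52.9% of all genes tested, 18 of them toward C57BL/6 and 8 toward BALB/c. The median log2 fold change of the 51 genes was 0.02.

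**Figure D4:**
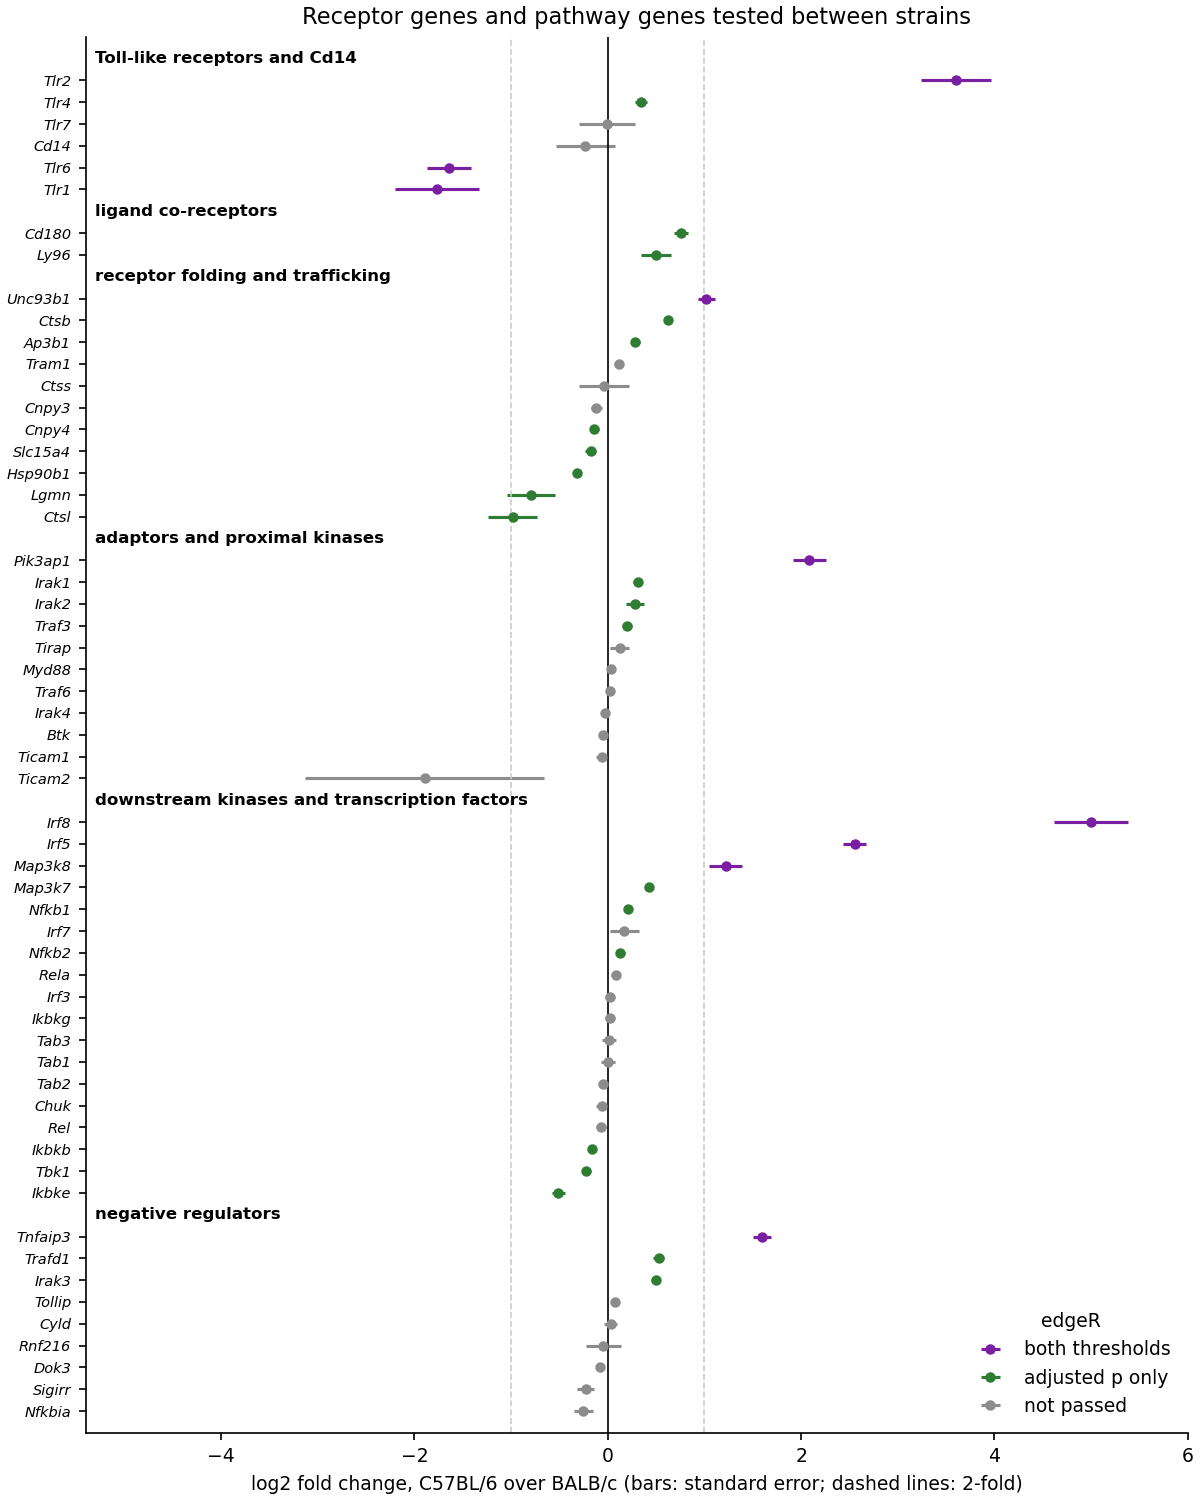
Log2 fold change, C57BL/6 over BALB/c, of the 6 tested genes of the family and the 51 tested pathway genes, with the standard error as bars and the 2-fold limits as dashed lines. Purple genes passed both thresholds, green genes the adjusted p alone and grey genes neither. Tlr2, Irf8 and Irf5 lay farthest to the right, and Tlr6 and Tlr1 were the only genes called on the left.

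Other cells that carry Toll-like receptors were looked for by their marker genes. Calls in these lists stand beside 7.73% of all genes tested that were called higher in C57BL/6 and 5.54% in BALB/c. Of 8 macrophage or monocyte markers, Csf1r, C1qa, C1qb and C1qc had no read in any library, and Lyz2 and Mrc1 had at most 2 reads in a library. Adgre1 and Cd68, the remaining ones, were both called higher in C57BL/6, and the summed level of the list ranged from 0.705 to 1.63 CPM for BALB/c and from 13.3 to 13.9 CPM for C57BL/6. The neutrophil list summed to at most 0.186 CPM and the B cell list to at most 0.282 CPM in any library. Of 8 dendritic cell markers, only Itgax was tested and called, and the list summed to 7.76 to 8.59 CPM for BALB/c and to 37.1 to 38.9 CPM for C57BL/6, with Clec9a and Siglech at 0. Of the 8 genes of the basophil list, 4 were called higher in C57BL/6 (Mcpt8, Prss34, Ccl9 and Cebpa), against 7.73% of all genes tested. Prss34, Ccl9 and Cebpa, like Adgre1, reached the filter only through that strain. Ms4a3 passed the adjusted p alone toward C57BL/6 and Il18r1 toward BALB/c, with a log2 fold change of -0.54 (edgeR adjusted p = 0.0041), and Cd200r3 and Itga2 did not pass. The sum of the basophil list ranged from 406 to 418 CPM for BALB/c and from 512 to 523 CPM for C57BL/6. The part of these genes' cells in the values of Tlr2, Tlr6 and Tlr1 was not tested.

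The genes whose profile over the 6 libraries was most like that of each called receptor were found by the root mean square difference of centred log2(CPM + 0.1) values. For Tlr2 these were Gm42312 (0.0768), Gm30365 (0.138) and Zbp1 (0.144), a sensor of nucleic acids that had a mean of 0.041 CPM for BALB/c against 0.904 CPM for C57BL/6. Gm42312 and Gm30365 had a mean of 0 CPM for BALB/c and fitted log2 fold changes of 7.04 and 6.96, against 3.60 for Tlr2. Their closeness to Tlr2 thus depends on the 0.1 added to CPM. For Tlr6 they were Ankrd34b (0.129), Gda (0.168), which encodes guanine deaminase, and Tex15 (0.169). For Tlr1 they were Wnt9a (0.0834), Clec4n (0.111), the gene of the fungal receptor dectin-2, and Tmem217 (0.133). With 6 libraries that differ mainly by strain, such likeness describes the difference between strains and the order of libraries within them.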

How the data were processed

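RNA of day 20 BMMCs was sequenced from 3 BALB/c and 3 C57BL/6 cultures. The authors checked reads with FastQC 0.11.5 and assigned them to transcripts with Salmon 0.8.2, per the submitters' processing notes. The deposited tables list, for each RefSeq transcript, an estimated count (not always a whole number) and its TPM. The study's methods name Ensembl GRCm39, whereas the tables list RefSeq accessions. The mouse reference is of the C57BL/6J strain, and the effect of this on BALB/c reads was not tested.

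Accessions were matched without version to symbols through a RefSeq table of GRCm38.p6 (106440 of 129698 transcripts), and the unmatched ones, with 2.69% to 3.12% of the reads, were left out. Counts were summed by gene and rounded. Strains were compared by the quasi-likelihood test of edgeR 4.0.16 in R 4.3.3, with TMM factors (0.940 to 1.05), a filter at a minimum count of 10, and Benjamini-Hochberg adjustment over 12461 genes. CPM values use TMM-corrected library sizes and rounded counts. SEs were derived from the fold change and F. The biological coefficient of variation was 0.0665, and scripts were tested on simulated data. Exact Clopper-Pearson intervals (95%) used scipy 1.17.1. Gene coordinates are from GENCODE on GRCm39 and promoters from RefSeq on GRCm38.p6.

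The 10 genes and the lists were chosen with earlier results of these data known. Named were all 10 genes, each listed gene past both thresholds, 11 listed genes that act directly with the receptors, and the 3 nearest profiles of each called receptor. Alternatives were DESeq2 1.42.0 with and without a length offset, edgeR with that offset, other library sizes, other filters, each library left out, limma 3.58.1 on log2 TPM values with a pseudocount of 1 or 0.1, the adjusted p alone, curated transcripts alone, and summed reads of relatives. The comparison of 31-base words was added after the data were seen.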

Additional observations from a re-analysis of the deposited data

How the results depend on the processing

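The numbers of called genes depended mostly on filter, scale and threshold. With the adjusted p alone, 2 of the 10 genes were higher in C57BL/6, and 18 and 8 pathway genes passed in the direction of C57BL/6 and BALB/c, and 3361 and 3227 of all genes. DESeq2 left 1 of the 10 genes higher in BALB/c, with and without the length offset, because Tlr1 missed the adjusted p. At least 10 counts in every library took Tlr1 and Tlr2 out, leaving 0 called toward C57BL/6 and 1 called toward BALB/c, and 613 and 404 of all genes. Limma on log2(TPM + 1) left 0 and 0 of the 10 genes past both thresholds, and 434 and 365 of all genes, since fold changes of low genes shrink on that scale. Limma on log2(TPM + 0.1) left 1 higher in BALB/c. Curated transcripts alone left 0 and 1 of the 10 genes, since nearly all reads of Tlr1 and Tlr7, and those of Tlr2 in S10, S11 and S12, were on predicted transcripts and these genes were not tested, and 437 of all genes higher in BALB/c.

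Pathway genes called higher in C57BL/6 went from 6 to 5 with plain library size, upper-quartile factors, 10 counts in every library, curated transcripts, and without S11 or S12, and to 4 on each limma scale. Those called higher in BALB/c went from 0 to 1 with plain library size and with upper-quartile factors, and lay between 0 and 1 with a library left out. The sign of Tlr7 turned to 0.0029 with 10 counts in every library and lay between -0.20 and 0.16 with a library left out, where Cd14 lay between -0.40 and 0.13. With plain library size, under which the median over all genes was -0.15, and with limma on log2(TPM + 1) and log2(TPM + 0.1), Myd88 was at -0.11, -0.14 and -0.15, Tirap at -0.022, -0.041 and -0.052, and Traf6 at -0.12, -0.14 and -0.15. Irak4 turned to 0.0052 (DESeq2) and 0.00093 (edgeR) with a length offset, whereas it passed the adjusted p with plain library size and on both limma scales (-0.18, -0.17 and -0.18). So did Myd88 in each of these settings, Cnpy3 (-0.26, -0.29 and -0.30) and Ticam1 (-0.20, -0.22 and -0.24). Tlr2, Tlr6, Unc93b1, Pik3ap1, Map3k8, Irf5, Irf8 and Tnfaip3 kept their direction and their side of the adjusted p in each alternative fitted. No paired analysis was possible because the library numbers are not shared between strains. The cause of the other changes was not tested. Tlr1, Tlr2, Cd14 and Tlr7 rest on few reads, and for Cd14 the spread between libraries adds to counting error.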
